A study of Mus musculus with 8 samples.

Results

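Complement is a cascade of plasma and tissue proteins that marks cells, debris and synapses for removal and calls in phagocytes. C1q, built from the chains encoded by C1qa, C1qb and C1qc, recognises targets and starts the classical pathway, in which C4 and then C3 are cleaved. Factor B, encoded by Cfb, drives the alternative pathway that amplifies C3 cleavage. The small fragments released from C3 and C5 act on the receptors C3aR and C5aR1, and C1 inhibitor, encoded by Serping1, restrains the proteases at the start. In the brain, microglia are the main known source of C1q, and C1q and C3 are known for their part in synapse removal.

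The 9 complement genes described here (C1qa, C1qb, C1qc, C3, C4b, Cfb, C3ar1, C5ar1 and Serping1) were taken by symbol from the 32227 genes counted, and all 9 were present in the files. They were followed in 8 single-cell libraries of CD45+ brain cells, each from 1 male C57Bl/6J mouse aged 5 to 6 months per the labels. The methods of the study give a younger range for these mice. Of the 8 mice, 4 received lipopolysaccharide (LPS, the endotoxin of gram-negative bacteria) by a single intraperitoneal injection of 15000000 EU/kg and 4 received saline, and brains were taken 24 h later. In each in vivo group, 2 brains were dissociated with DMSO as the vehicle and 2 with an inhibitor mixture (actinomycin D, triptolide and anisomycin, which block transcription and translation), with 1 library of each combination in each of 2 batches. The mice carried no engineered allele, and the brains were not perfused. Cells from blood vessels, meninges and choroid plexus are present beside brain cells.

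Cells with at least 800 and under 45000 UMIs (unique molecular identifiers, each counting 1 captured RNA molecule), at least 250 and under 6500 genes, and under 5% mitochondrial UMIs numbered 12039 to 17364 per library. They were placed in classes by marker genes that did not include the 9 complement genes, and 11 of these classes are described. UMIs were summed per library and class, and levels are given as CPM, the standard scaled share of a gene among the UMIs of that class in that library. Values are listed in the order DMSO 1, DMSO 2, inhibitors 1, inhibitors 2. Microglia were the largest class, with 24420673 to 72743195 UMIs per library, whereas meningeal fibroblasts were the smallest of the 11, with 7 to 41 cells per library.

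Several facts of the libraries touch these genes. The markers that gate microglia summed to 306 to 323 UMIs per 10000 in saline microglia and to 50.5 to 59.6 with LPS, and the share of cells left in no class was 6.41% to 11.5% in saline and 22.4% to 26.7% in LPS libraries. Barcodes with 1 to 99 UMIs, taken as free RNA, held 15.5% to 33.7% of the UMIs of a library, and C1qa reached 5991 to 8151 CPM in the saline and 8691 to 11816.2 CPM in the LPS free RNA. C1q UMIs in classes that do not make C1q are therefore read against this background below. Pairs of libraries shared 0 to 25 cell barcodes, at most 0.187% of the smaller library.

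Promoters are shown for the members with a RefSeq entry that bear on the results: C1qb and C1qc, chains of 1 protein whose UMIs moved apart with LPS, and C3 and C3ar1, the ligand precursor and its receptor that rose together in microglia. All lie on the minus strand of GRCm38.p6 and run 5′ to 3′ from 250 bases before the start to 50 after it. They are C1qb at chr4:136886151-136886450, C1qc at chr4:136892865-136893164, C3 at chr17:57228087-57228386 and C3ar1 at chr6:122856108-122856407. In C1qb and C1qc the capitals mark GAGGAA on either strand, a core bound by PU.1, the myeloid lineage factor. In C3 they mark TTGCNNAA, a C/EBP-like pattern, and in C3ar1, on the opposite strand, GGG and TTCC with 3 bases between, an NF-kappaB-like pattern.
C1qb: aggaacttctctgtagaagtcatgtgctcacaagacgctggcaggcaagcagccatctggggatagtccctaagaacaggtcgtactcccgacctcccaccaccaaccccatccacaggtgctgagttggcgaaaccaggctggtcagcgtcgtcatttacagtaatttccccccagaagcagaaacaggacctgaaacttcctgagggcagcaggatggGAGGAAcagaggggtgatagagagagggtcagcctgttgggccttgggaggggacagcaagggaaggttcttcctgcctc
C1qc: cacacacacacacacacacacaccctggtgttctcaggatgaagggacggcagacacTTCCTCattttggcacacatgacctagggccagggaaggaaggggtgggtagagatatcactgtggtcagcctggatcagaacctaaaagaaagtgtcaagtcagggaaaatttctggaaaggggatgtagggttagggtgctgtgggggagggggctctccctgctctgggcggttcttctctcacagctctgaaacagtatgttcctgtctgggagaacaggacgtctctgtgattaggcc
C3: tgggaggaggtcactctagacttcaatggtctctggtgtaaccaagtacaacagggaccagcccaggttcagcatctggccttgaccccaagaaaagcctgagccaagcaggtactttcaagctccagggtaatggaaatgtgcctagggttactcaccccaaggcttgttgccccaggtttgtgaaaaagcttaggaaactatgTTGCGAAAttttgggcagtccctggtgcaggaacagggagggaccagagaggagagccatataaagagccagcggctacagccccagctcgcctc
C3ar1: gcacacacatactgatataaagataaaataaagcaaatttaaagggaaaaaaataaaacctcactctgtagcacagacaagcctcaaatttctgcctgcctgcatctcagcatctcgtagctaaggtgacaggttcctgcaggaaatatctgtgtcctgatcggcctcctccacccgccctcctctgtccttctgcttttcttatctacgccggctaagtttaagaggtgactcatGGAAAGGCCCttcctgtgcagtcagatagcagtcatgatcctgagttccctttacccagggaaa
The GAGGAA match lay 30 bases before the start in C1qb and 193 bases before it in C1qc, and 28.3% of 32851 promoter windows of the same length hold these letters. The C3 match began 45 bases before the start (10.8% of windows) and the C3ar1 match 14 bases before it (5.56% of windows). Neither TTCNNNGAA (STAT-like, 8.30% of windows) nor GAAA and GAAA with 2 bases between (interferon regulatory factor-like, 3.44%) was found in the 5 member promoters, and C5ar1 held none of the patterns. The patterns were chosen with these sequences in view, and a match describes letters only. C1qa, C4b, Cfb and Serping1 were not among the entries used.

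The members differed in the classes where they were highest. Ependymal cells, and pericytes and smooth muscle, are described further below and were not ranked here. In saline libraries the 3 C1q chains were highest in microglia and border macrophages. The latter were gated by 3 or more of 7 markers of macrophages of the brain's borders, Mrc1 among them. C4b was highest in border macrophages, at 583 ± 90.7 CPM (SD, n = 4). The next class ranked, microglia, stood at 9.16 ± 4.55 CPM with no overlap. C3 was highest in monocytes (283 ± 30.0 CPM) and neutrophils (193 ± 118 CPM), whose libraries overlapped. C5ar1 was highest in neutrophils, C3ar1 in border macrophages followed by microglia, and Serping1 in meningeal fibroblasts. In each of these orders the leading class did not overlap the next class ranked. Serping1 in saline pericytes and smooth muscle, which were not ranked, overlapped that in meningeal fibroblasts. Cfb was low in saline libraries, with no mean of a ranked class above 29.7 CPM.

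**Figure D1:**
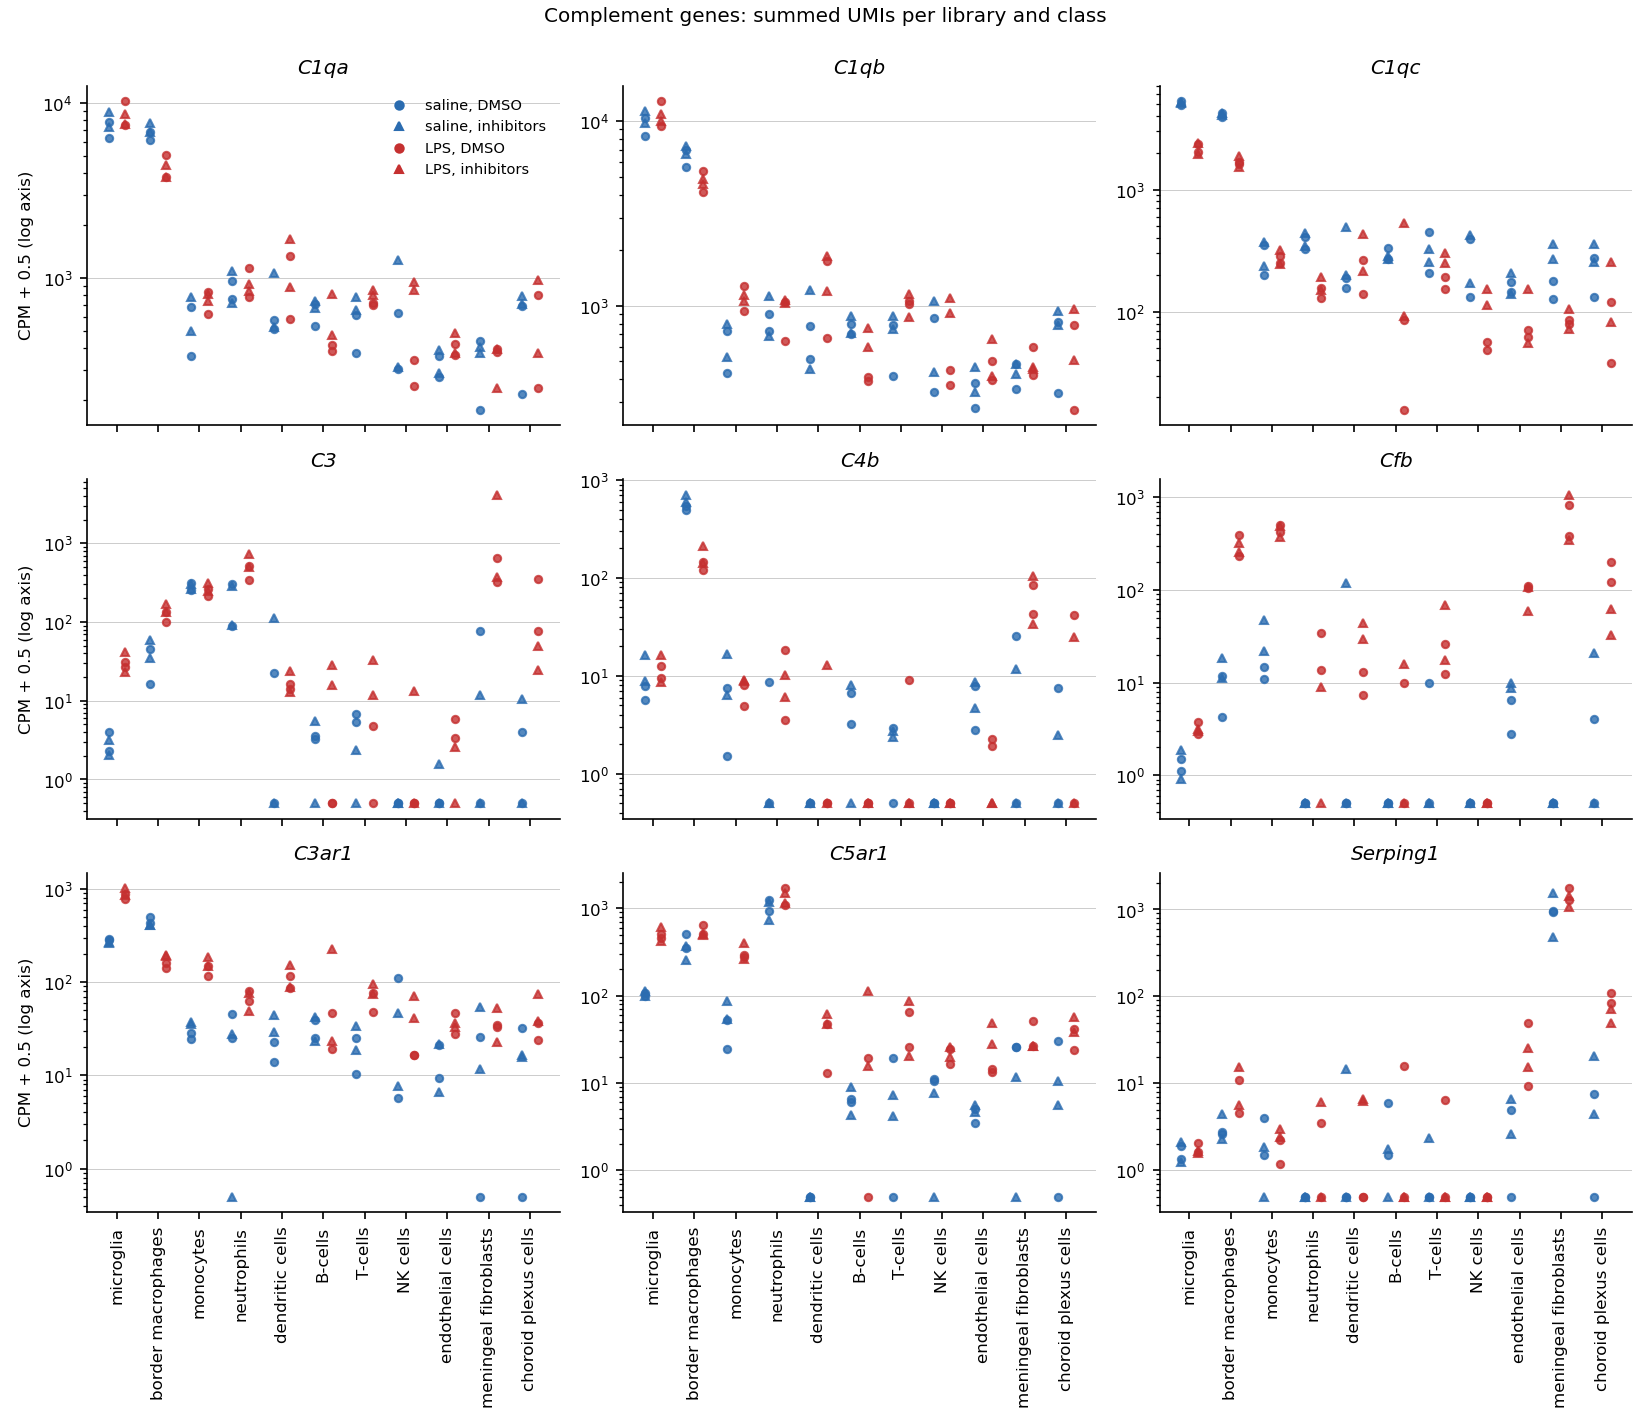
Level of each of the 9 complement genes per class, in CPM on a log axis, with 1 point per library (4 saline, 4 LPS) and 0.5 CPM added so that a count of 0 can be drawn. C1q chains sit highest in microglia and border macrophages, C4b in border macrophages, C5ar1 in neutrophils and Serping1 in meningeal fibroblasts, and Cfb is high in monocytes, border macrophages and fibroblasts of the LPS libraries.

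With LPS, the members moved in different directions in different classes. Over the 10 classes with enough cells, 53 member-class pairs passed the filter on low counts, of which 23 rose and 7 fell by the quasi-likelihood test of edgeR, with p adjusted (Benjamini-Hochberg) over all genes of the class. Of all gene-class pairs tested, 20.4% were called higher and 22.1% lower. A rise of over 2 on the log2 scale was called in 10 member-class pairs, against 3.35% of all pairs. A member that passed the filter because it is high with LPS had to differ, so these counts describe the pairs tested and not all members. In 3 of the 30 calls (Cfb in endothelial cells, C3ar1 in T-cells and dendritic cells) 0 saline libraries reached the level of the filter and all 4 LPS libraries did, and these are given without a p. By class, 3 of 8 members tested rose and 3 fell in border macrophages (24.3% of all genes called higher, 25.4% lower), 4 of 8 rose and 0 fell in monocytes (13.2% and 13.9%), 4 of 5 rose and 1 fell in endothelial cells (20.9% and 21.7%), and 1 of 6 rose and 1 fell in neutrophils (14% and 14.3%). In T-cells 2 of 4 rose and 0 fell (9.22% and 9.12%), in dendritic cells 1 of 4 rose and 0 fell (15.7% and 12.7%), and in NK cells 0 of 3 rose and 1 fell (8.66% and 10.7%). In B-cells (9.39% of all genes called, 5% higher and 4.39% lower) and choroid plexus cells (11.4% called, 8.07% higher and 3.33% lower) edgeR called 0 of 3, with C1qc the 1 member at an unadjusted p under 0.05 in each, and DESeq2 called 0 in B-cells. C1qc in B-cells (-1.01, edgeR adjusted p = 0.140) was called without LPS inhibitors 1 (-1.86, adjusted p = 0.00114) and with a stricter gate (-1.64, adjusted p = 0.00716). The same held with the highest doublet scores left out (-1.40), without the filter on low counts (-1.26) and with DMSO libraries only (-2.29). It was not called with total UMIs (-1.12, adjusted p = 0.178), the replicate block (-1.05, adjusted p = 0.0947) or free RNA subtracted (-0.44, adjusted p = 0.823). In choroid plexus cells C1qc (-1.34, adjusted p = 0.0650) was called with the batch as a replicate block (-1.36, adjusted p = 0.0117), with median-of-ratios factors (-1.44, adjusted p = 0.0434) and by DESeq2 (-1.38, adjusted p = 0.0449). It was not called by edgeR with total UMIs (-1.17, adjusted p = 0.111). Subtraction of free RNA left 74 C1qc UMIs over the saline and 19 over the LPS libraries of this class.

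In microglia all 9 members were tested, 8 rose and 1 fell, where 65.2% of all genes were called in either direction (30.1% higher, 35.1% lower). Their median log2 fold change was 1.02, and that of all 20142 genes tested was -0.19. The scale matters here: with total UMIs in place of TMM factors (which set the libraries level on most genes), the median of all genes was -0.94. In LPS microglia Saa3, an acute-phase protein gene, rose from 0.00410% to 3.18% of UMIs and Fth1, ferritin heavy chain, from 0.204% to 2.09%. The 4 rises beyond a log2 of 2 with TMM (4.57% of all genes), in C3, Cfb, C3ar1 and C5ar1, were called as higher under either scale. With total UMIs C3 (3.67) and C5ar1 (2.26) stayed over 2, and C3ar1 (1.69) and Cfb (1.62) did not. The rises of C1qa, C1qb, C4b and Serping1 were lost with total UMIs.

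**Figure D2:**
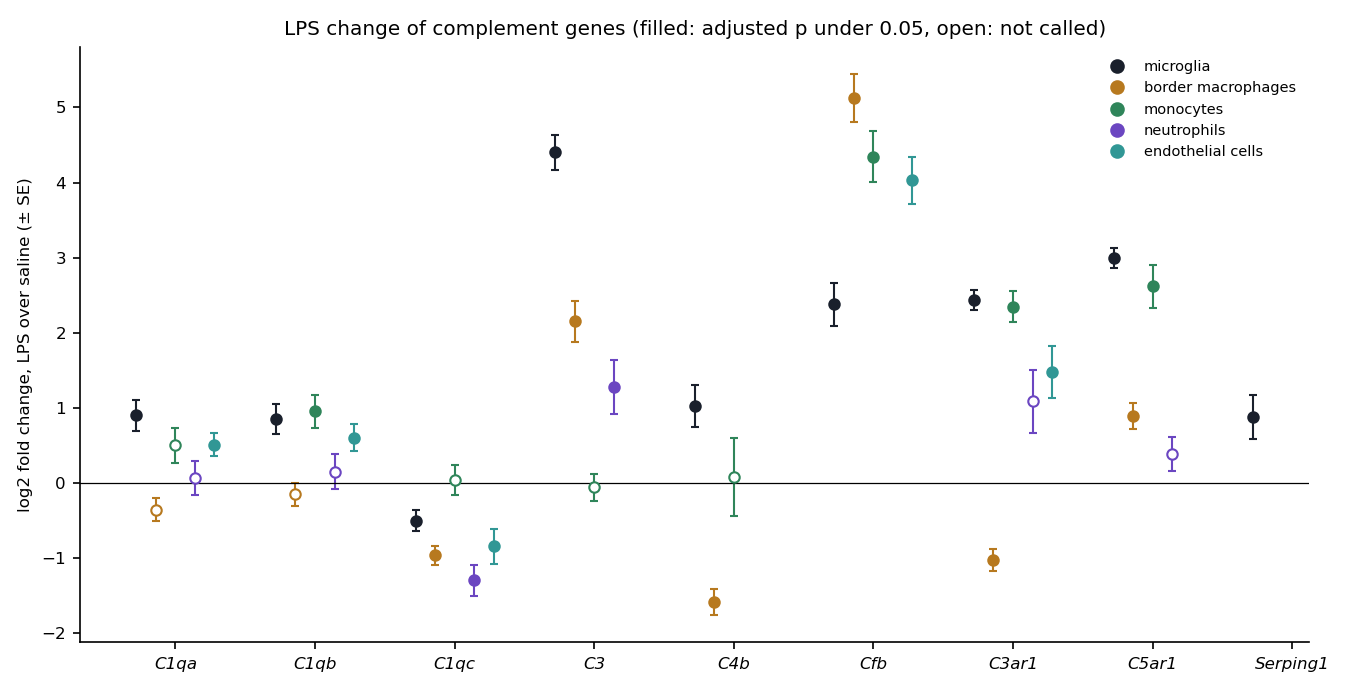
Log2 fold change of LPS over saline for each complement gene in microglia, border macrophages, monocytes, neutrophils and endothelial cells, edgeR with TMM, with bars of 1 SE. Filled points passed an adjusted p of 0.05 and open points did not. C3ar1 and C4b lie above 0 in microglia and below 0 in border macrophages, and Cfb is the highest point of border macrophages, monocytes and endothelial cells.

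C1qa, the A chain, was measured in saline microglia at 6279, 7782, 7343 and 8934 CPM and in LPS microglia at 7495, 10223.2, 7628 and 8709 CPM. The groups overlapped, and no library stood outside the range of the others by much. The log2 fold change was 0.90 ± 0.21 (SE, edgeR adjusted p = 0.00212) with TMM and 0.17 ± 0.13 (adjusted p = 0.231) with total UMIs. Gated microglia held more UMIs per cell with LPS, and C1qa rose with them, from a mean of 21.0 UMIs per cell in saline (18.5 to 24.2) to 48.9 with LPS (41.8 to 55.3). The gate asked for 3 or more markers, and the median number detected per microglial cell was 9 in saline and 4 with LPS. With LPS, ungated cells had a median of 2128 to 2457 UMIs, and gated microglia 5022 to 5824. Ungated LPS cells held 11066 to 15308 CPM of C1q. The part of the gate in the values per cell was not tested.

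C1qb, the B chain, ran parallel to C1qa, at 8335, 10368.5, 9721 and 11262 CPM in saline and 9421, 12769.8, 9992 and 10893.5 CPM in LPS microglia. Its groups overlapped as well, with a log2 fold change of 0.85 ± 0.20 (edgeR adjusted p = 0.00255) with TMM and 0.12 ± 0.12 (adjusted p = 0.356) with total UMIs.

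C1qc, the C chain that completes the C1q trimer, went the other way. Saline microglia gave 4899, 5259, 5119 and 5226 CPM and LPS microglia 2346, 2010.2, 2385 and 1962 CPM. Every LPS library lay below every saline library. The log2 fold change was -0.50 ± 0.14 (edgeR adjusted p = 0.0080) with TMM, -1.24 ± 0.09 (adjusted p = 9.8e-08) with total UMIs, and -0.41 ± 0.18 (adjusted p = 0.0662, not called) with median-of-ratios size factors. With total UMIs, the scale of the CPM, 13556 of 20142 microglial genes were called lower, and the median of all was -0.94. Without saline DMSO 2 the value was -0.40 (adjusted p = 0.0826) and without saline inhibitors 2 it was -0.38 (adjusted p = 0.0587), so the call with TMM rests on each of these libraries. Per cell, C1qc was at 14.4 UMIs in saline (12.3 to 16.8) and 12.5 with LPS (10.9 to 13.7), while both partner chains were higher.

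The share of C1qc among the UMIs of the 3 chains does not depend on the scale. In microglia it was 22.8% ± 1.87 (SD, n = 4) in saline and 10.3% ± 2.06 (n = 4) with LPS (exact two-sided permutation test, p = 0.0286, the smallest that 4 against 4 can give). Both other chains took up the difference, C1qa going from 33.4% ± 1.24 to 39.6% ± 1.28 and C1qb from 43.8% ± 0.75 to 50.1% ± 0.92. Border macrophages showed the same direction, from 23.3% ± 1.49 to 15.7% ± 1.64 for C1qc (exact permutation p = 0.0286), with C1qa at 39.0% ± 0.93 and 39.8% ± 1.95 (exact permutation p = 0.486). In free RNA the C1qc share went from 15.2% ± 0.79 to 6.96% ± 0.83. This measure was chosen after the values of the chains were seen, so its p does not stand as a separate test of the C1qc fall. These p are not adjusted over the chains and classes compared. The shares are of captured UMIs, not of the amounts of the chains. The UMIs of the chains were spread over nearly all microglia: before thinning, 99.1% to 99.7% of microglia in each library had a UMI of each chain.

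**Figure D3:**
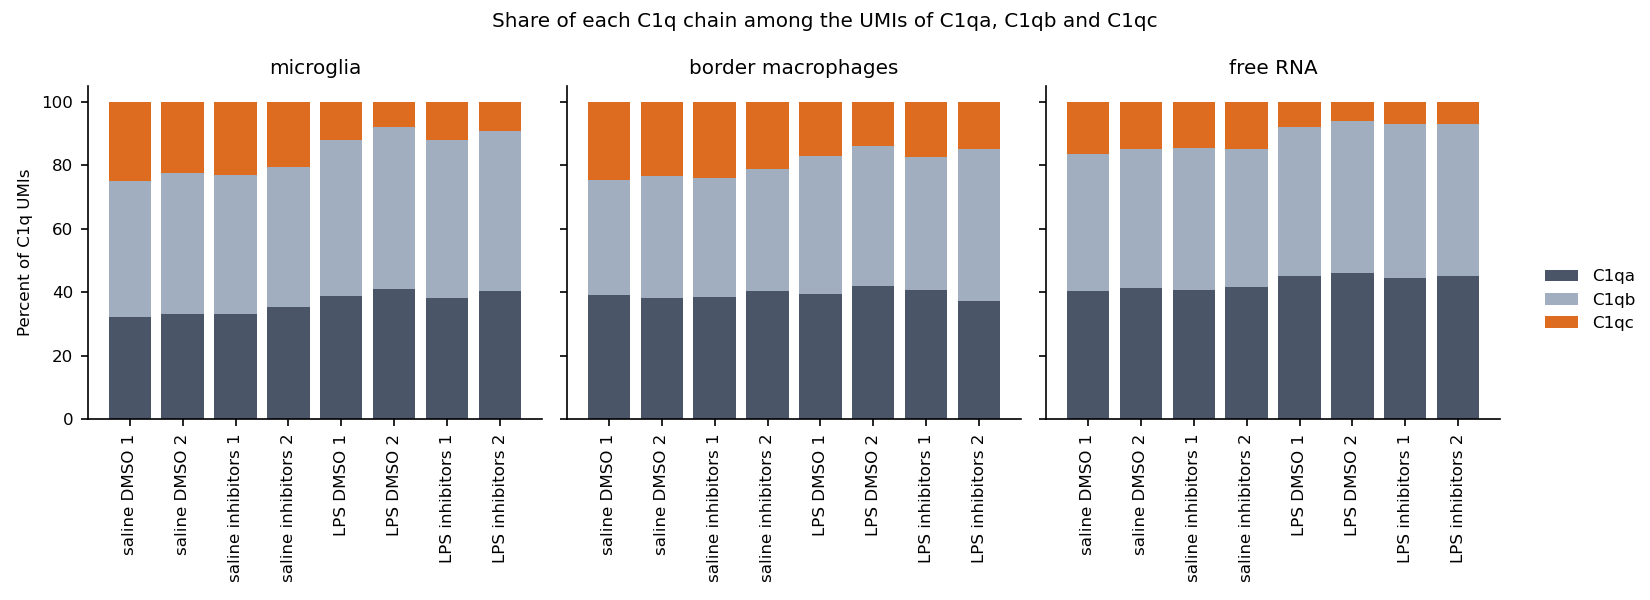
Share of C1qa, C1qb and C1qc among the UMIs of the 3 chains, in percent, for microglia, border macrophages and free RNA of each of the 8 libraries. The C1qc share is lower in every LPS library than in every saline library in all 3 panels, 10.3% against 22.8% on average in microglia.

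In border macrophages the 3 chains were lower with LPS on the CPM scale. C1qa was at 6150.2, 6863, 6809 and 7679 CPM in saline and 3756, 5074, 4413 and 3779 CPM with LPS, and C1qb at 5647, 6931, 6671 and 7361 CPM in saline and 4152, 5385, 4556 and 4840 CPM with LPS. For neither chain did the groups overlap. With TMM neither passed the test (C1qa -0.36 ± 0.15, edgeR adjusted p = 0.068; C1qb -0.15 ± 0.15, adjusted p = 0.430). C1qa was called when the batch was added as a replicate block (-0.35, adjusted p = 0.0123), and both were called with total UMIs (-0.71 and -0.51). On that scale 3578 of 8673 genes of this class were called lower, and the median of all was -0.40. C1qc went from 3886, 4219.9, 4225 and 4062 CPM to 1614, 1674, 1869 and 1517 CPM, and this fall passed with TMM (-0.96 ± 0.13, adjusted p = 2.0e-05). Saline border macrophages also carried 4742 to 5057 CPM of the markers that gate microglia, and LPS border macrophages 471 to 729 CPM. The part of microglial RNA in their C1q was not tested by separating the cells. After the expected free RNA was subtracted, C1qa was at -0.97, C1qb at -0.66 and C1qc at -0.98, all called. Here and below the expected free RNA is an upper estimate. Every UMI of the markers of chosen other classes was counted as free RNA.

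C1q UMIs were found in every class. Set against the UMIs of the microglial markers, C1q in free RNA gave a ratio of 0.861 to 1.02 in saline and 4.50 to 6.00 in LPS libraries. Microglia themselves gave 0.633 to 0.817 and 3.61 to 4.49, since their markers were lower with LPS. Border macrophages were far above both, at 3.22 to 4.03 and 14.9 to 22.0. In saline libraries the ratio was 0.788 to 0.977 in monocytes, 0.674 to 0.882 in neutrophils and 0.713 to 0.835 in endothelial cells, which is near the ratios of free RNA and microglia. With LPS it was 5.10 to 7.0 in monocytes, 3.51 to 4.70 in neutrophils and 4.56 to 5.97 in endothelial cells. The highest LPS monocyte library was above the free RNA range. In T-cells the ratio was 0.830 to 1.31 in saline and 5.37 to 9.3 with LPS, in dendritic cells 0.507 to 1.47 and 3.84 to 7.76, and in NK cells 0.821 to 1.44 and 3.17 to 6.23, so that some libraries of each lay above the range of free RNA and some below it. How much of the C1q in these classes came from free RNA was not tested by separating the cells.

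**Figure D4:**
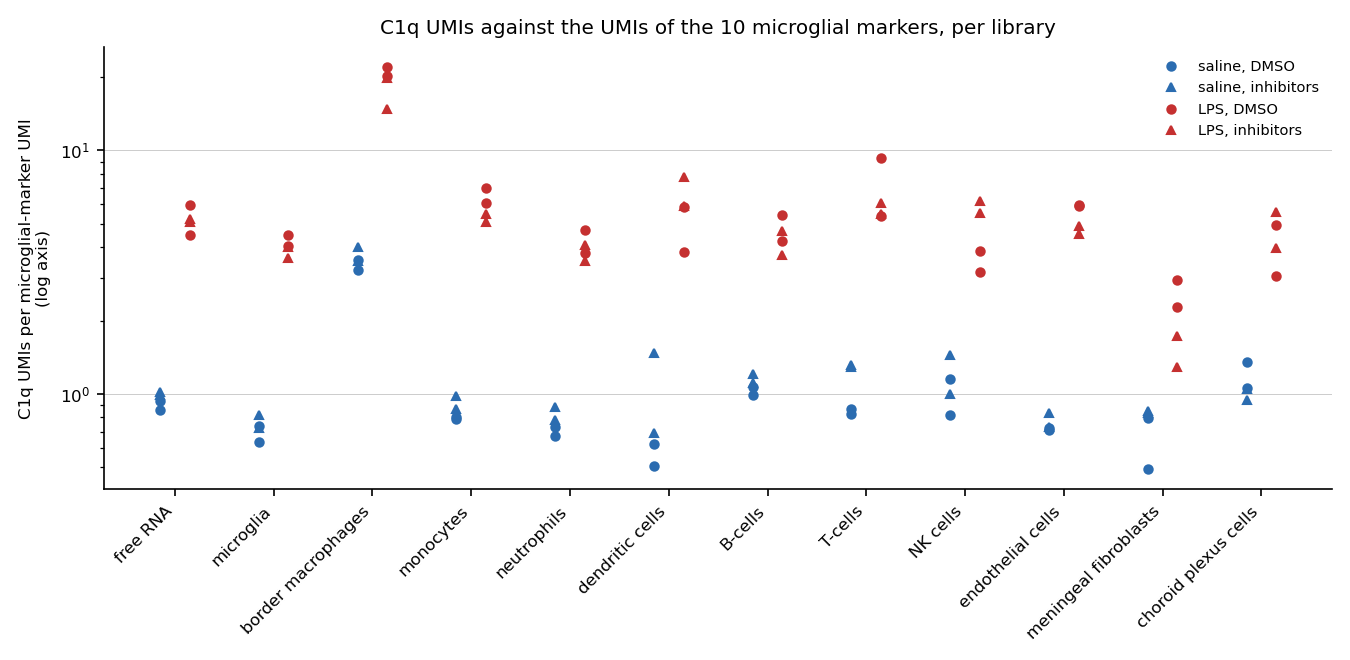
UMIs of C1qa, C1qb and C1qc per UMI of the microglial markers, on a log axis, per class and for free RNA, with 1 point per library. Border macrophages stand above free RNA in saline (3.22 to 4.03 against 0.861 to 1.02) and in LPS libraries (14.9 to 22.0 against 4.50 to 6.00). The other classes lie closer to free RNA. With LPS, T-cells (5.37 to 9.3), dendritic cells (3.84 to 7.76), monocytes (5.10 to 7.0) and NK cells (3.17 to 6.23) reach above it. In saline libraries B-cells, T-cells, NK cells, dendritic cells and choroid plexus cells do.

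C1q was called in several of these classes. C1qb was called higher in monocytes (0.95 ± 0.22, edgeR adjusted p = 0.00638), T-cells (0.64 ± 0.20, adjusted p = 0.0325) and endothelial cells (0.60 ± 0.18, adjusted p = 0.0101), and C1qa in endothelial cells (0.51 ± 0.15, adjusted p = 0.0117). C1qc was called lower in neutrophils (-1.30 ± 0.21, adjusted p = 2.8e-04), NK cells (-1.56 ± 0.40, adjusted p = 0.0108) and endothelial cells (-0.84 ± 0.23, adjusted p = 0.00722). In free RNA, C1qb was at 6342 to 9011 CPM in saline and 9011 to 12351 CPM with LPS, and C1qc at 2161 to 2937 and 1440 to 1523 CPM. With the expected free RNA subtracted, C1qb in monocytes was at 0 UMIs in all 4 saline and 237 to 1582 UMIs in the LPS libraries, and C1qb in B-cells at 36 to 95 UMIs in saline and 0 UMIs in all 4 LPS libraries, so no fold is given for them. C1qc in monocytes, with 12 to 57 UMIs left in saline and 385 to 571 with LPS, was called higher (1.81, adjusted p = 0.00282), and C1qb in T-cells was not called (1.36, adjusted p = 0.291). C1qc in neutrophils and NK cells and all 3 chains in endothelial cells no longer passed the filter after subtraction. The call for C1qb in T-cells was lost without any of 4 libraries (LPS inhibitors 2, LPS DMSO 1, saline DMSO 2 or saline inhibitors 1), which left values of 0.44 to 0.65, and that for C1qc in NK cells without saline inhibitors 2 (-1.23, adjusted p = 0.0556) and with a stricter gate on the markers (-0.73, adjusted p = 0.221). With total UMIs the calls in endothelial cells were lost for C1qb (0.40, adjusted p = 0.0897) and C1qa (0.31, adjusted p = 0.128), as was C1qb in T-cells (0.50, adjusted p = 0.0704). C1qa in endothelial cells was lost without the filter on low counts too (0.48, adjusted p = 0.0511). With the cells of highest doublet score left out, C1qb in T-cells was lost as well (0.43, adjusted p = 0.152).

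C3, the component on which all pathways meet, rose in microglia from a very low level. Saline microglia gave 1.83, 3.52, 2.63 and 1.53 CPM and LPS microglia 30.5, 26.2, 41.7 and 22.4 CPM. The lowest LPS library was several times the highest saline library. The log2 fold change was 4.4 ± 0.24 (edgeR adjusted p = 1.1e-08). C3 in free RNA went from 9.0 to 18.4 CPM in saline to 53.7 to 70.4 CPM with LPS, above the microglial level in each group, and with the expected free RNA subtracted the change in microglia was 5.49 ± 0.32 (adjusted p = 5.4e-08). After cells were thinned to 800 UMIs, 0.118% to 0.260% of saline and 1.68% to 3.08% of LPS microglia had a C3 UMI (0.333% to 0.702% and 10.9% to 16.3% before thinning).

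Border macrophages rose in C3 too, from 15.9, 45.1, 58.0 and 34.8 CPM to 133, 98.4, 168 and 132 CPM, with no overlap (2.15 ± 0.28, edgeR adjusted p = 1.4e-05). LPS monocytes stood higher, at 214 to 315 CPM, and the gate markers and Itgam of border macrophages changed with LPS as given below. The part of these in the C3 rise was not tested. Neutrophils, which carry C3 in saline libraries at 89.8, 303, 91.8 and 288 CPM, were at 342, 519.7, 730.1 and 497 CPM with LPS (1.27 ± 0.36, adjusted p = 0.0137). The 2 saline libraries of batch 2 were higher than those of batch 1, and all 4 lay below the LPS libraries. That call was lost when cells under 1500 UMIs were left out (0.65, adjusted p = 0.270). Monocytes, in contrast, gave 255, 315, 259 and 302 CPM in saline and 261, 214, 315 and 245 CPM with LPS, with a log2 fold change of -0.06 ± 0.18 (adjusted p = 0.839). The LPS change in microglia exceeded that in monocytes by 4.09 ± 0.23 on the log2 scale (edgeR interaction, monocytes minus microglia -4.09, adjusted p = 2.8e-14).

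C4b, the classical pathway component cleaved by activated C1, marked border macrophages. Saline libraries gave 538, 496, 592 and 705 CPM and LPS libraries 145, 121, 210.4 and 143 CPM. All 4 LPS libraries lay far below the saline range, and the log2 fold change was -1.59 ± 0.17 (edgeR adjusted p = 2.8e-06). The markers that gate border macrophages were lower as well, from 119 to 128 UMIs per 10000 in saline to 48.2 to 55.4 with LPS, and the median number of them per cell from 5 to 3, the minimum of the gate. The part of this change in the lower C4b and C3ar1, in the higher C3 and C5ar1, or in other genes of this class was not tested. After thinning, 22.9% to 31.0% of saline and 8.63% to 15.3% of LPS border macrophages had a C4b UMI (33.5% to 44.4% and 20.2% to 28.9% before thinning). In microglia C4b was low, at 5.23, 7.45, 15.7 and 8.26 CPM in saline and 12, 9.02, 15.9 and 8.22 CPM with LPS, and the groups overlapped. Its rise there was called with TMM (1.02 ± 0.28, adjusted p = 0.00589) and not with total UMIs (0.29 ± 0.30, adjusted p = 0.372). The change in border macrophages was lower than that in microglia by 2.68 ± 0.14 (border macrophages minus microglia -2.68, edgeR interaction, adjusted p = 1.1e-44). C4b and its neighbour C4a are near-identical copies, so how reads were split between them is uncertain, and C4a fell in border macrophages as well (-1.53 ± 0.19, adjusted p = 1.2e-05).

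Cfb, the protease of the alternative pathway, was called higher in 4 classes, microglia among them. Monocytes went from 10.5, 14.2, 21.7 and 46.5 CPM to 501, 422, 373 and 489 CPM (4.34 ± 0.34, edgeR adjusted p = 2.3e-06). Border macrophages went from 3.71, 11.3, 10.7 and 17.9 CPM to 389, 234, 257 and 325 CPM (5.12 ± 0.32, adjusted p = 8.9e-09), where 2 saline libraries reached the level of the filter. Itgam rose in the same class to near its level in LPS monocytes, and the gate markers of border macrophages were lower. The part of these in the Cfb rise was not tested. In endothelial cells, the lining of brain vessels, Cfb went from 2.29, 5.94, 9.48 and 8.17 CPM to 105, 111, 58.1 and 108 CPM, with the saline libraries under the level of the filter. In none of the 3 classes did the groups overlap, and all LPS libraries were above the 23.7 to 39.8 CPM of free RNA with LPS.

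Microglia had almost no Cfb, at 0.600, 0.983, 1.40 and 0.403 CPM in saline and 3.22, 2.31, 2.66 and 2.52 CPM with LPS. The rise passed the test (2.38 ± 0.28, edgeR adjusted p = 1.1e-05), yet free RNA held 1.60 to 5.24 CPM in saline and 23.7 to 39.8 CPM with LPS, above the microglial level in both groups. With the expected free RNA subtracted, 6 to 29 Cfb UMIs were left per saline library and 0 in all 4 LPS libraries, so the rise is not told apart from background. The LPS change of Cfb was larger than in microglia by 2.76 ± 0.29 in border macrophages (edgeR interaction, adjusted p = 6.0e-17) and 2.41 ± 0.38 in monocytes (adjusted p = 1.6e-05), and the fitted value in endothelial cells was 1.57. Without saline inhibitors 2 these differences were 3.64, 3.11 and 2.36. After thinning, 0.774% to 1.69% of saline and 25.2% to 30.0% of LPS monocytes had a Cfb UMI, as did 0.196% to 1.09% and 14.9% to 22.0% of border macrophages. Before thinning these were 1.77% to 3.21% and 55.8% to 66.7% of monocytes, and 0.988% to 2.76% and 32.6% to 43.9% of border macrophages.

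Meningeal fibroblasts, the stromal cells of the brain's coverings, had too few cells for the test as planned, and a version that took libraries with at least 5 cells was added after the data were seen. Of 5 members tested there Cfb and C3 were called higher, as were 10.5% of genes. Both were at or near 0 in saline and passed the filter through the LPS libraries, where they are high, so the calls were fixed by the filter and only their values are given. Cfb had 0 UMIs in all 4 saline libraries and stood at 379, 827, 1064 and 348 CPM with LPS. Against the limit set by 3 counts over the saline group, this is at least 31.2-fold higher. C3 went from 75.5, 0, 0 and 11.3 CPM to 326, 642, 4125 and 374 CPM, with the highest value from LPS inhibitors 1, a library with 9 fibroblasts.

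C3ar1, the receptor of the C3a fragment, moved in opposite directions in microglia and in the border macrophage class. Whether that class held the same kind of cells in both in vivo groups was not tested. Microglia went from 283, 287, 262 and 268 CPM to 892, 787, 1014 and 869 CPM (2.43 ± 0.13, edgeR adjusted p = 1.2e-08). Border macrophages went from 429.7, 499, 414 and 414 CPM to 159, 142, 195 and 189 CPM (-1.03 ± 0.15, adjusted p = 3.5e-05). The LPS level in border macrophages was under the 541 to 770.3 CPM of free RNA. With the upper estimate of free RNA subtracted, 424 to 744 UMIs were left per saline library and 0 to 28 per LPS library. Each of these groups was tight and the LPS and saline ranges were far apart, so that border macrophages ranked above microglia in saline libraries and microglia above border macrophages with LPS. The difference of the changes, border macrophages minus microglia, was -3.47 ± 0.12 (edgeR interaction, adjusted p = 1.2e-72), and with total UMIs the changes were 1.69 in microglia and -1.38 in border macrophages. After thinning, a C3ar1 UMI was seen in 17.9% to 19.4% of saline and 44.5% to 52.3% of LPS microglia, and in 26.5% to 31.7% and 11.9% to 13.7% of border macrophages. Before thinning the ranges were 40.0% to 47.8% and 89.7% to 93.0% of microglia, and 52.4% to 58.9% and 28.8% to 32.4% of border macrophages.

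Monocytes rose in C3ar1 from 28.0, 24.3, 35.3 and 36.8 CPM to 147, 116, 188 and 150.1 CPM (2.35 ± 0.21, edgeR adjusted p = 4.9e-06). C3ar1 was also called higher in endothelial cells (1.48 ± 0.34, adjusted p = 0.00182, with 2 saline libraries at the level of the filter), and the fitted values in T-cells and dendritic cells were 1.84 and 1.79. In these 3 classes its LPS level, 27.1 to 154 CPM, was under the 541 to 770.3 CPM of free RNA, and after subtraction of the expected free RNA it no longer passed the filter. In neutrophils C3ar1 missed the threshold (1.09 ± 0.42, adjusted p = 0.0656) and was called with the batch as a replicate block (1.14, adjusted p = 0.0459). Its LPS level in neutrophils, 49.0 to 79.4 CPM, was under that of free RNA too. Subtraction left 5 C3ar1 UMIs over the saline and 3 over the LPS libraries there.

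C5ar1, the receptor of the C5a fragment and a guide of neutrophils and monocytes, rose in microglia from 97.9, 107, 114 and 98.3 CPM to 463, 509, 607 and 425 CPM (3.0 ± 0.13, edgeR adjusted p = 2.0e-09). Monocytes rose from 52.5, 24.3, 85.6 and 54.3 CPM to 293, 277, 403 and 259.5 CPM (2.62 ± 0.29, adjusted p = 2.9e-05). In both classes the groups were far apart. Border macrophages started higher, at 509.7, 350.3, 367 and 256 CPM, and stood at 645, 508, 512 and 499 CPM with LPS. The groups overlapped through saline DMSO 1, and the rise was called with TMM (0.89 ± 0.18, adjusted p = 7.1e-04).

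Neutrophils had the highest C5ar1 of the classes ranked in both in vivo groups, at 1233, 936, 1178 and 730.0 CPM in saline and 1695, 1084, 1479.8 and 1153 CPM with LPS. The groups overlapped and the change was not called (0.39 ± 0.23, edgeR adjusted p = 0.217). It was smaller than that of microglia (neutrophils minus microglia -2.22 ± 0.25, edgeR interaction, adjusted p = 6.4e-17). Dendritic cells had 0 C5ar1 UMIs in the 4 saline libraries and 12.6, 47.4, 61.5 and 46.7 CPM with LPS, at least 4.22-fold above the limit set by 3 counts over the saline group. Their LPS level was under that of free RNA (271 to 349 CPM). After thinning, 7.18% to 8.25% of saline and 28.4% to 37.5% of LPS microglia had a C5ar1 UMI (17.8% to 25.8% and 80.7% to 85.4% before thinning).

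**Figure D5:**
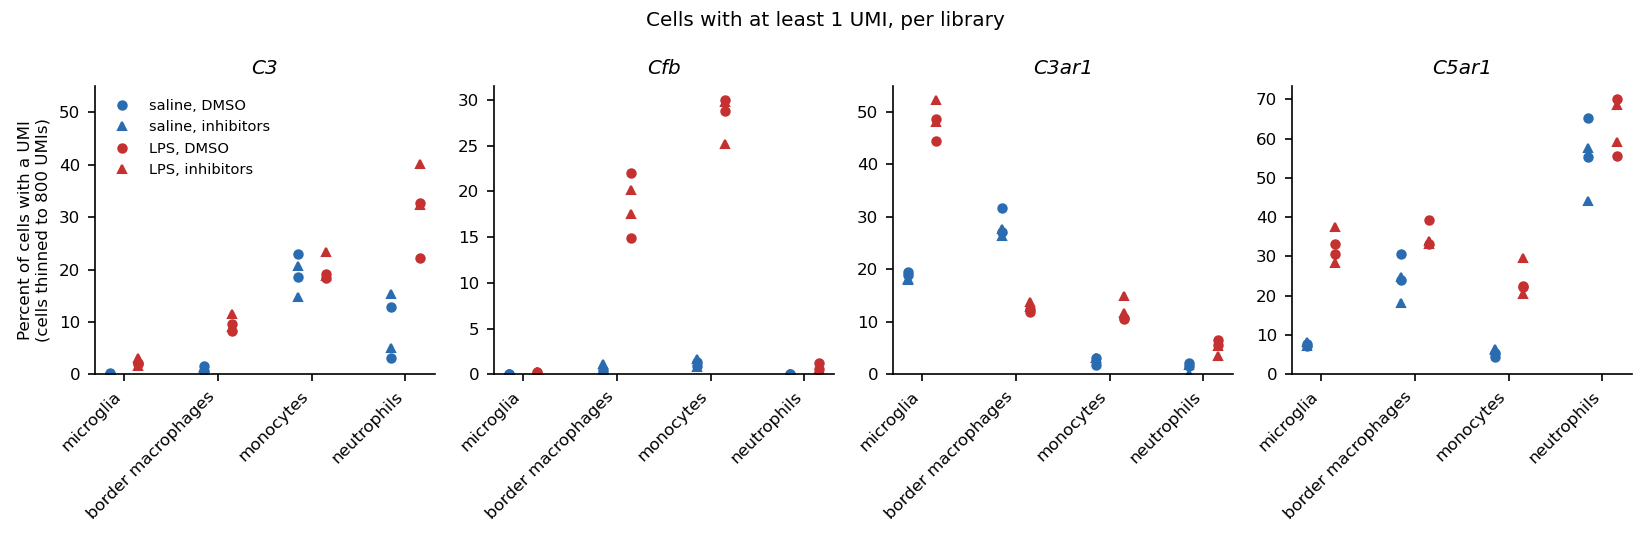
Percent of cells with at least 1 UMI of C3, Cfb, C3ar1 or C5ar1 after thinning each cell to 800 UMIs, with 1 point per library, in microglia, border macrophages, monocytes and neutrophils. C3ar1 lies higher with LPS in microglia (44.5% to 52.3% against 17.9% to 19.4%) and lower in border macrophages (11.9% to 13.7% against 26.5% to 31.7%).

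The shares of cells follow 81 comparisons by an exact two-sided permutation test of 4 against 4 libraries, in which the smallest possible p = 0.0286 becomes 0.0609 after Benjamini-Hochberg adjustment, so no share passes the correction and they are given as values. For comparison, a UMI of C1qb, a gene of microglia and macrophages that neutrophils should lack, was found after the same thinning to 800 UMIs in 41.8% to 57.0% of saline and 43.1% to 59.4% of LPS neutrophils, whose median depth was 1131.5 to 2001 UMIs against 2220.0 to 5824 UMIs in microglia. The shares of C3, Cfb, C3ar1 and C5ar1 in microglia, and of C1q in other classes, are to be read with this background in mind. Shares before thinning depend on depth as well, and the median depth of gated microglia was 2220 to 3205 UMIs in saline and 5022 to 5824 UMIs with LPS.

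Serping1, the inhibitor of C1r, C1s and the MASP proteases, was mainly stromal. Meningeal fibroblasts gave 932, 947, 1553 and 484 CPM in saline and 1749.8, 1275, 1427 and 1058 CPM with LPS, which overlapped (0.59 ± 0.36, edgeR adjusted p = 0.262). In choroid plexus cells, the epithelium that makes cerebrospinal fluid, it stood at 0, 7.05, 20.3 and 3.97 CPM in saline and 108, 82.9, 71.7 and 48.9 CPM with LPS, with no overlap, but did not pass the filter on low counts as planned. In a pair of further small classes Serping1 was called higher. In ependymal cells it went from 0 to 26.4 CPM in saline to 152 to 438 CPM in 3 LPS libraries (LPS inhibitors 1 had 9 cells and was left out; 0 to 6 UMIs per saline library, so that it passed the filter through LPS), where 19.6% of genes were called. In pericytes and smooth muscle it rose (1.05 ± 0.18, edgeR adjusted p = 5.6e-04, 28.5% of genes called). In microglia Serping1 was near 1 CPM in all 8 libraries (0.743 to 1.61 CPM in saline, 1.09 to 1.58 CPM with LPS). Its rise there (0.88 ± 0.29, adjusted p = 0.0188) was lost with total UMIs (0.14, adjusted p = 0.634) and without saline DMSO 1 (0.76), LPS DMSO 1 (0.77) or saline inhibitors 1 (0.71).

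Taking the classes against microglia directly, the LPS change of a member differed from that in microglia in 24 of 44 member-class pairs, larger in 6 and smaller in 18. When each library was left out in turn, 15 of the 24 were called throughout. The pairs called in B-cells, NK cells, dendritic cells and choroid plexus cells were all of C1q chains. There, and in monocytes and endothelial cells, C1q is to be read against the free RNA. The 24 include Cfb in endothelial cells, which passed the filter through the LPS libraries. Of all genes, the shares called larger and smaller were 11% and 10% in monocytes, 3.94% and 6.4% in neutrophils, 5.86% and 4.3% in dendritic cells, 1.28% and 11.1% in B-cells, and 2.69% and 10.7% in T-cells. They were 1.23% and 7.64% in NK cells, 9.26% and 21.6% in endothelial cells, and 5.31% and 8.61% in choroid plexus cells. The median difference of all genes in these fits was -0.93 in B-cells, 0.39 in dendritic cells, -0.36 in T-cells and -0.27 in NK cells. It was -0.28 in endothelial cells and in border macrophages, -0.11 in choroid plexus cells, 0.16 in monocytes and -0.12 in neutrophils. Differences of members are to be read against these medians. In border macrophages all 8 members that passed the filter differed, where 26.8% of genes were called (5.52% higher, 21.3% lower). Of these, Cfb alone was higher than in microglia, and C3, C4b, C3ar1, C5ar1 and the 3 C1q chains were lower (C1qa -1.28 ± 0.12, C1qb -1.03 ± 0.12, C1qc -0.48 ± 0.11, edgeR interaction, adjusted p at most 2.0e-04). The difference of C1qc was no longer called without any of the 4 saline libraries in turn (-0.25 to -0.21) or without the filter on low counts (-0.23).

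The dissociation inhibitors left these genes without a call. Between DMSO and inhibitor libraries 0 of 53 member-class pairs passed edgeR's test, 7 had an unadjusted p under 0.05, and the smallest adjusted p was 0.566 (C1qa in NK cells, -1.24 ± 0.34). Of all gene-class pairs 0.275% were called. The LPS change likewise differed between DMSO and inhibitor libraries in 0 of 53 pairs, with 3 at an unadjusted p under 0.05 and the smallest adjusted p at 0.878 (0.0159% of all pairs called).

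The other genes of the pathway, 44 in a list, did not move as a block. In microglia 38 passed the filter, 9 were called higher and 16 lower with TMM (30.1% and 35.1% of all genes), with a median log2 fold change of -0.54. Of the 9, C2, C4a, Itgam and Itgb2, singled out after their values were seen, had a lower mean CPM with LPS than in saline (Itgam 1011 ± 86.1 and 844 ± 158 CPM). C5ar2, the other C5a receptor, fell from 109 ± 6.81 to 12.1 ± 3.47 CPM (SD, n = 4; -2.46 ± 0.17, edgeR adjusted p = 8.1e-08), opposite to C5ar1. Cfp, properdin that stabilises the alternative convertase, rose at a low level (2.82 ± 0.15, adjusted p = 1.2e-08), as did C1qbp, a C1q-binding mitochondrial protein (1.99 ± 0.12, adjusted p = 3.4e-08). Masp1, Vtn and Fcna fell at a low level (-1.95, -2.12 and -2.50).

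In border macrophages 16 of the 44 were tested, 4 rose and 7 fell (24.3% and 25.4% of all genes). C5ar2 fell there as well, from 102 ± 21.6 to 6.83 ± 2.71 CPM (fitted log2 change -3.56, with 0 LPS libraries at the level of the filter), as did Fcna, a ficolin of the lectin pathway (-1.80 ± 0.28). Itgam, the alpha chain of complement receptor 3, rose from 293 ± 26.9 to 2042 ± 387 CPM (3.13 ± 0.16, edgeR adjusted p = 9.1e-10; LPS monocytes were at 2352 ± 522 CPM), and Cd55, decay-accelerating factor, from 30.3 ± 5.97 to 135 ± 36.2 CPM (2.48 ± 0.19, adjusted p = 6.1e-08).

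In monocytes 3 of 14 tested rose and 5 fell (13.2% and 13.9% of all genes), among them Itgam (2.00 ± 0.27, edgeR adjusted p = 1.6e-04) and C1ra, a protease of the C1 complex, which rose, and Itgax (-2.76 ± 0.43, and -2.05 without saline inhibitors 1), which fell. C1ra was at 0 to 5.81 CPM in saline and 9.81 to 18.0 CPM with LPS and passed the filter through the LPS libraries, so no test is given. Clu fell (-1.87 ± 0.45), and Fcnb (-3.32 ± 0.93, adjusted p = 0.0178) rested on saline DMSO 2 (0.20 without it), and the call was lost without LPS DMSO 1 or LPS inhibitors 2 too. In neutrophils (14% of all genes higher, 14.3% lower) 1 of 8 rose, Cfp (1.07 ± 0.23), and 3 fell, Cd55 (-2.56), C5ar2 (-1.65) and Csmd1 (-1.66 ± 0.46), of which Cd55 and C5ar2 reached the level of the filter in saline libraries alone. The Csmd1 call was lost without saline DMSO 1 (-0.88, edgeR adjusted p = 0.0889) or LPS inhibitors 2 (-1.50, adjusted p = 0.0533). In endothelial cells 5 of 13 were called higher and 0 lower (20.9% and 21.7% of all genes), C1ra and C1rb among them, with Cd93 (1.06 ± 0.15), C1qbp (0.77 ± 0.19) and Cd59a (0.66 ± 0.17). C1ra (0 to 7.37 CPM in saline, 22.9 to 96.9 CPM with LPS) and C1rb (1.15 to 5.26 and 14.9 to 45.6 CPM) passed the filter through the LPS libraries, so no test is given for them. In choroid plexus cells 1 of 6 genes tested was called higher (8.07% of all genes), C1ra, which went from 0 to 10.1 CPM in saline to 81.4 to 287 CPM with LPS. It passed the filter through the LPS libraries, so no test is given.

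Among lymphocytes and dendritic cells fewer genes of the list could be tested. B-cells had Cr2, complement receptor 2, at 51.1 to 90.5 CPM in saline and at 0 UMIs in all 4 LPS libraries, and Cd55 fell there (-2.75 ± 0.49, edgeR adjusted p = 6.7e-04, and -4.87 without LPS inhibitors 2). Of the 7 tested in B-cells, 0 rose and 3 fell (5% and 4.39% of all genes). LPS B-cells numbered 16 to 53 per library, with 35611 to 130563 UMIs. The B-cell gate markers were at 91.8 to 108 UMIs per 10000 in saline and 44.7 to 60.3 with LPS. The part of depth and of this change in the B-cell falls was not tested. Itgb2, the beta chain shared by complement receptors 3 and 4, fell in T-cells (-1.09 ± 0.21), NK cells (-1.42 ± 0.18) and dendritic cells (-2.01 ± 0.37). In T-cells 1 of 5 rose and 2 fell (9.22% and 9.12%), in NK cells 0 of 4 rose and 2 fell (8.66% and 10.7%), and in dendritic cells 0 of 5 rose and 2 fell (15.7% and 12.7%). T-cells rose in Itgam (0.91 ± 0.28), a call lost without saline DMSO 2, saline inhibitors 1, saline inhibitors 2 or LPS inhibitors 1 (0.74 to 0.86). NK cells fell in Itgam (-1.14 ± 0.24) and dendritic cells in Cfp (-1.96 ± 0.45). The dendritic cell gate markers were at 30.1 to 94.3 UMIs per 10000 in saline (81 cells) and 183 to 226 with LPS (298 cells). The part of this change in the dendritic cell falls was not tested.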

How the data were processed

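Each of the 8 libraries came from CD45+ cells of 1 mouse brain, captured by PIPseq in 2 batches. The deposited values were raw UMI counts per gene and barcode, which the authors made with PIPseeker (STAR alignment, GRCm39 with GENCODE genes). The labels also name Seurat 4. Cells were kept by the limits given above. A barcode joined a class at 3 or more of its marker genes, microglia by a cut at a fraction of the library's own median of marker UMIs. The gate's thresholds were set after marker values were seen. Automatic Scrublet calls marked 0.00756% to 0.497% of cells per library and were not used, so doublets stayed in, and leaving out the highest 8% of scores was an alternative.

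UMI counts were summed per class and library with at least 10 cells, in at least 3 libraries a group, and tested by edgeR 4.0.16 (quasi-likelihood F-test, TMM, filterByExpr, R 4.3.3) with Benjamini-Hochberg adjustment over all genes of the class. Calls needed an adjusted p under 0.05, and a second rule a log2 fold change over 2. The change per class was compared with that of microglia by an interaction term. DESeq2 1.42.0, other scalings, filters, gates, a subtraction of free RNA and leaving out each library were alternatives, and the scripts were tested on simulated counts. Permutation tests enumerated all 70 splits of 4 against 4 libraries in Python 3.11.15. The replicate number marks the batch per the labels and therefore pairs samples. Same-numbered libraries had correlations of deviations from -0.41 to 0.26 over 12 pairs, 4 of them over 0.1. Libraries of other numbers had -0.67 to 0.067 over 16 pairs, 0 of them over 0.1. The main fit held in vivo treatment alone, with no batch term, and the replicate block was an alternative. With the block the SE of C1qa in microglia was 0.10, against 0.21 without it.

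Named were the 9 members in every class, and of the 44 other complement genes those called in a class, at most the 6 with the largest absolute change, and for each member the 2 genes with the most similar pattern. Some genes that this rule would name are not reported here. Members and lists were chosen with earlier results of these data known. Promoters came from RefSeq (GRCm38.p6), with 5 of 9 members matched.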

Additional observations from a re-analysis of the deposited data

Results flagged for a closer look

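In 9 of 106 groups of 4 libraries, 1 library lay far from the other 3 by Dixon's ratio, where chance gives about 1 in 20 groups. LPS DMSO 1 was high for C5ar1 in border macrophages (645 CPM, the others 499 to 512 CPM) and for Serping1 in microglia (1.58 CPM, the others 1.09 to 1.15 CPM), and low for C1qb in neutrophils (642 CPM, the others 1029.98 to 1078 CPM). LPS inhibitors 1 was low for Cfb in endothelial cells (58.1 CPM, the others 105 to 111 CPM) and high for C1qc in endothelial cells (152 CPM, the others 55.2 to 69.8 CPM) and in B-cells (534 CPM, the others 15.3 to 91.9 CPM). Saline inhibitors 1 was high in dendritic cells for C1qa (1065 CPM, the others 514 to 577 CPM) and C1qc (495 CPM, the others 155 to 198 CPM), and saline DMSO 1 was low for C1qa in choroid plexus cells (216 CPM, the others 691 to 788 CPM).

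The LPS change differed from that of microglia by edgeR's interaction test in 24 of the 44 member-class pairs that passed the filter of the class, given as class minus microglia on the log2 scale. In border macrophages the differences were -3.47 for C3ar1, -2.68 for C4b, -2.28 for C3, -2.10 for C5ar1, -1.28 for C1qa, -1.03 for C1qb, -0.48 for C1qc and 2.76 for Cfb. In monocytes they were -4.09 for C3, 2.41 for Cfb and 0.90 for C1qc, and in neutrophils -2.67 for C3 and -2.22 for C5ar1. Endothelial cells differed in C3ar1 (-1.0), C1qa (-0.46) and Cfb (fitted value 1.57, with 0 saline libraries at the level of the filter). The C1q pairs outside microglia and border macrophages are to be read against the free RNA. Among lymphocytes and dendritic cells the pairs were of C1q chains, with C1qa (-1.34) and C1qb (-1.43) in B-cells, C1qa (-0.70), C1qb (-0.58) and C1qc (-0.79) in NK cells, and C1qb (0.75) and C1qc (1.11) in dendritic cells. The median of all genes in these fits was -0.93 in B-cells, -0.27 in NK cells and 0.39 in dendritic cells. In the separate fits per class C1qb changed by 0.88 in dendritic cells and 0.85 in microglia, and C1qc by -0.10 and -0.50. Choroid plexus cells differed in C1qb (-1.18). When each library was left out in turn, 15 of the 24 were called throughout and 9 were lost at least once. C1qb in dendritic cells was lost without any library but saline inhibitors 1 (0.39 to 0.76). C1qb in NK cells was lost without saline DMSO 1, saline DMSO 2, saline inhibitors 2, LPS DMSO 1 or LPS DMSO 2, and without the filter on low counts (-0.30). C1qa and C1qc in NK cells were lost without saline DMSO 1, saline inhibitors 2, LPS DMSO 1, LPS DMSO 2 or the filter. C1qc there was lost without LPS inhibitors 1 too. C1qa in endothelial cells was lost without any library but LPS DMSO 1 and LPS inhibitors 1. Lost without 4 libraries each were C1qc in dendritic cells (saline DMSO 1, saline inhibitors 2, LPS DMSO 2 or LPS inhibitors 1, 0.70 to 0.88) and C1qb in choroid plexus cells (either LPS DMSO or either saline inhibitors library, -1.25 to -0.95). Without saline inhibitors 2, C1qa in NK cells was at 0.03, C1qb at -0.032 and C1qc at -0.18, and the Cfb differences were 3.64 in border macrophages, 3.11 in monocytes and 2.36 in endothelial cells. C3ar1 in endothelial cells was at -0.37 without saline DMSO 1 and -0.32 without saline inhibitors 1.

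Signal was also found in 2 classes outside the main comparisons. In ependymal cells, the ciliated lining of the ventricles, with 3 LPS libraries because LPS inhibitors 1 had 9 cells, the fitted log2 changes were 3.99 for Serping1, 3.27 for C4b and 3.28 for C3, and C1qc was lower (-1.69, edgeR adjusted p = 0.00464), where 19.6% of genes were called. With the expected free RNA subtracted C1qc no longer passed the filter. Serping1 had 0 to 6, C4b 1 to 14 and C3 0 to 28 UMIs in the saline libraries and all passed the filter through the LPS libraries, so no test of them is given. C3 was at 0 to 107 CPM in saline and 530 to 747 CPM with LPS. In pericytes and smooth muscle, the mural cells of vessels, Serping1 was higher (1.05, edgeR adjusted p = 5.6e-04, 425 to 545 CPM in saline and 849 to 1044 CPM with LPS, where 28.5% of genes were called), as were C1qb (1.53) and C1qa (1.34). With the expected free RNA subtracted C1qb was at 3.37 (adjusted p = 0.0130) and C1qa no longer passed the filter. The C1qb call was lost without saline DMSO 1 (1.33, adjusted p = 0.0602), saline inhibitors 2 (1.48, adjusted p = 0.0533) or LPS DMSO 2 (0.98, adjusted p = 0.0764).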

How the results depend on the processing

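Of the 30 member-class calls of LPS against saline, all 30 kept their direction and call with DESeq2, with dissociation treatment added as a covariate, with a mitochondrial limit of 10% and with the replicate block, which gave 24 higher and 9 lower and added C1qa in border macrophages, C1qc in choroid plexus cells and C3ar1 in neutrophils. With total UMIs 23 of 30 were kept, with inhibitor libraries only 19 of 30, with DMSO libraries only 21 of 29, and with free RNA subtracted 19 of 21. Leaving out each library in turn gave 23 to 27 higher and 5 to 9 lower, and 26 of 30 were kept throughout. Without the filter on low counts 36 were higher, 20 of them by over 2, and DMSO against inhibitors gave 2 lower. That last count ranged from 0 to 2 when a library was left out. With free RNA subtracted 11 pairs were higher than in microglia. The direction reversed for Cfb in microglia with free RNA subtracted (-7.02, with 0 UMIs left in the LPS libraries), and for Fcnb in monocytes with inhibitor libraries only (0.86) and without saline DMSO 2 (-3.78 to 0.20 over the libraries left out). Of the 24 differences from microglia, 15 were kept throughout when a library was left out. C1qa in NK cells reversed without saline inhibitors 2 (-1.04 to 0.030 over the libraries left out). C1qa in endothelial cells reversed with free RNA subtracted (10.20), without saline DMSO 1 (0.10) and without saline inhibitors 1 (0.029), with a range of -0.60 to 0.10. Of differences that were not called, C1qb in T-cells (0.96), C1qb in endothelial cells (10.95) and C1qc in endothelial cells (2.90) turned positive with free RNA subtracted, which left 0 UMIs of C1qa and C1qb in all 4 saline endothelial libraries. The cause was not tested. In small classes depth limits what could be seen: with 7 to 41 fibroblasts per library, a member at 0 may be below detection, and the limits set by 3 counts cover counting error only.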

Other observations

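Across 22 class-by-group means of log2 CPM, over 11216 genes, the genes most like each member were given as a description, since these points share libraries. C1qa and C1qb were closest to Ctss (Pearson r = 0.90 and 0.91) and Fcgr1 (0.87 and 0.87), whereas C1qc was closest to Csf1r (0.94) and Abcc3 (0.89). C3 was closest to Rhou (0.88) and Dgat2 (0.86), C4b to C4a (0.91) and Ctsb (0.83), and Cfb to Cstb (0.80) and Psmd3 (0.80). C3ar1 was closest to Ccl12 (0.92) and Lacc1 (0.89), C5ar1 to Rnf149 (0.89) and Clec4d (0.89), and Serping1 to Ctxn3 (0.94) and Col1a2 (0.94), the latter a marker of the fibroblast gate.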
